A study of Drosophila melanogaster with 2 samples.

Results

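The genes described here belong to the EGF receptor pathway of Drosophila melanogaster. The list held 10 symbols, spi, S, rho, vn, Egfr, aos, sty, pnt, aop and krn, and a gene was included where its symbol, with the same upper and lower case letters, had a row in the deposited expression table. This gave 9 of the 13623 genes in the table. The symbol krn, in lower case, had no row, and the ligand gene written Krn in the table is described beside the 9 genes and not counted with them.

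Nuclear RNA was sequenced from 2 libraries, 1 of neural stem cells (NSCs) and 1 of neurons, to follow gene expression while NSCs differentiate into neurons in the embryo. Nuclei were isolated by INTACT, in which a tag on the nuclear envelope of chosen cells is bound by antibody-coated beads. Both strains carried the transgene UAS-3xFLAG-blrp-mCherry-RanGap, which encodes that tag and is switched on by GAL4. The NSC library came from the strain labelled Sca-Gal4/cyo, with GAL4 under the scabrous driver, and from embryos labelled as 5 to 7 h after egg laying. The neuron library came from the strain labelled Elav-Gal4 and from embryos labelled as 12 to 14 h after egg laying. The collection and ageing times in the labels do not add up to these ages, and the stated ages were used. Each library holds nuclei pooled from many embryos and all tagged cells of the driver line, so fewer cells of a type and less RNA per cell cannot be told apart. Cell type, embryo age and driver line changed together. With 1 library per group there is no replicate check and no p-value here, and the differences below are differences between these libraries. The study itself called genes as differentially expressed between the cell types, and those calls were not used here.

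The EGF receptor is a receptor tyrosine kinase that signals through RAS and the MAP kinase cascade. Its main ligand in the embryo, Spitz, is made as an inactive membrane protein that Star carries out of the endoplasmic reticulum and Rhomboid cuts free. At the end of the cascade the Ets domain proteins Pointed, an activator, and Aop (also called Yan), a repressor, compete for the same target genes, while Argos and Sprouty damp the signal. In the fly embryo the pathway patterns the ventral ectoderm and helps to specify neuroblasts, and it later acts in midline glia, sense organs, trachea and muscle attachment.

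The pathway genes were expressed in both libraries, and most of them differed little between NSCs and neurons. All values are FPKM, the fragments of a gene per kilobase of its transcript and per 1000000 fragments mapped, and the log2 change is log2((neuron FPKM + 1)/(NSC FPKM + 1)). All 9 genes were above the median gene of each library, which lay at 5.28 FPKM for NSCs and 8.76 FPKM for neurons. S, which encodes Star, and aop were lower in neurons by 2-fold or more, none was higher by as much, and the other 7 stayed within 2-fold. A total of 10158 genes reached 1 FPKM in either library and were compared. Of these, 16.6% were lower in neurons by 2-fold or more and 26.9% were higher by as much. The 2 of 9 genes that were lower make up 22.2%, near the 16.6% of all compared genes. The median log2 change was -0.41 over the 9 genes and 0.14 over all compared genes. Scaling each library to the same total (TPM) turned the 2735 higher and 1684 lower genes of the whole comparison into 3430 and 1195, and left the same counts of 0 higher and 2 lower among the 9.

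**Figure D1:**
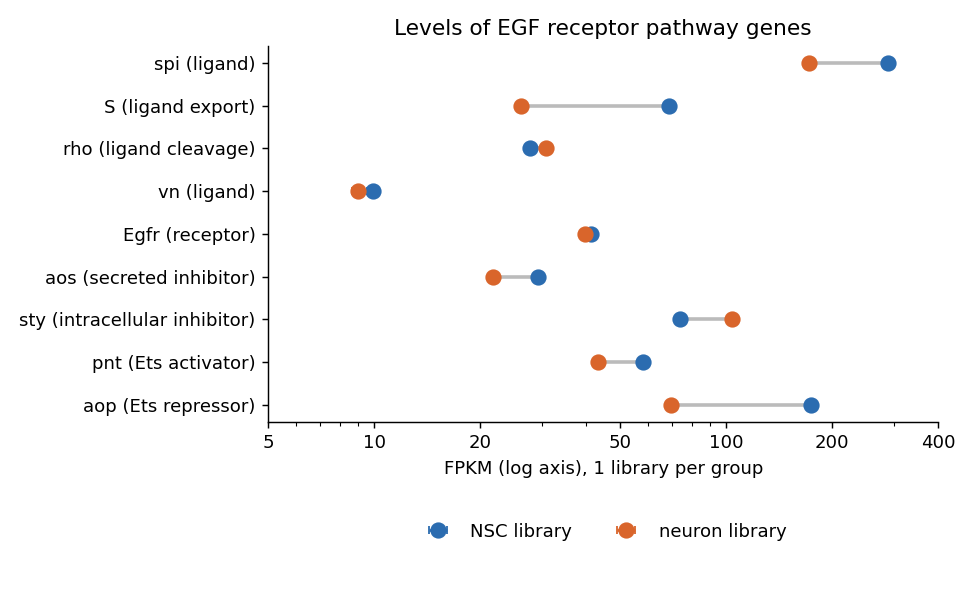
Level of each EGF receptor pathway gene in FPKM on a log axis, for NSCs (blue) and neurons (orange), with bars for the 95% counting interval, which are mostly hidden by the points. S and aop are joined by the longest lines, whereas the points of Egfr, at 41.3 and 39.7 FPKM, nearly coincide.

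The ligand gene spi was the highest of the 9 in both libraries. Its level was 288 FPKM in NSC nuclei and 172 FPKM in neuronal nuclei, at or above 97.7% and 96.6% of all genes. The log2 change was -0.74, under 2-fold. The fragments behind these values were estimated from the steps of the low FPKM values, and the 95% exact binomial interval of the log2 ratio of FPKM, which covers counting error only, ran from -0.77 to -0.72. The gene vn encodes Vein, a secreted neuregulin-like ligand that needs no cleavage by Rhomboid. It was the lowest of the 9, with 9.90 FPKM in NSCs against 8.99 FPKM in neurons, and its log2 change was -0.13. The level of spi was thus 29.1 times that of vn in NSCs and 19.1 times in neurons. Krn, which encodes Keren, a ligand similar to Spitz, had 13.6 FPKM in NSCs against 25.04 FPKM in neurons. Its log2 change of 0.84, which TPM scaling raised to 1.11, past 2-fold, was opposite in direction to that of spi, and the ratio of spi to Krn was 21.2 in NSCs and 6.87 in neurons. In the annotation used, 289 bp of Krn exons are shared with the neighbouring gene Ndfip on the same strand (56.8 and 60.3 FPKM), so reads of these genes may have been split between them.

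The genes for the proteins that activate Spitz differed from each other. S, which encodes the export factor Star, had 69.0 FPKM in NSC nuclei and 26.0 FPKM in neuronal nuclei. Its log2 change of -1.37 was the lowest of the 9 genes, and 8.99% of all compared genes had a lower one. The counting interval of its log2 ratio was -1.44 to -1.37. The protease gene rho had 27.6 FPKM in NSCs against 30.8 FPKM in neurons, for a log2 change of 0.15. S was therefore 2.50 times as high as rho in NSCs (95% counting interval 2.42 to 2.57) and 0.847 times as high in neurons (0.820 to 0.875). The order of these genes changed between the libraries, and this ratio does not depend on how the libraries are scaled to each other. The gene rho lies within the span of Ptp61F on the opposite strand, with no shared exon. Ptp61F had 159 FPKM in NSCs against 51.7 FPKM in neurons, and since strandedness is not given in the sources used here, unspliced reads of these genes could not be told apart.

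The receptor gene Egfr had 41.3 FPKM in NSCs against 39.7 FPKM in neurons. This is a log2 change of -0.06, the smallest in size of the 9, and its sign turned under TPM scaling (0.21). Egfr stood at or above 80.9% of all genes for NSCs and 81.2% for neurons. The ratio of spi to Egfr was 6.97 in NSCs and 4.33 in neurons.

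The inhibitor genes aos and sty moved in different directions. Argos, the product of aos, is secreted and binds Spitz, and its gene is a target of the pathway. The level of aos was 29.1 FPKM in NSCs against 21.7 FPKM in neurons, for a log2 change of -0.41. Sprouty, the product of sty, acts inside the cell on several receptor tyrosine kinases. The level of sty was 74.0 FPKM in NSCs against 104 FPKM in neurons, for a log2 change of 0.48, the highest of the 9 genes but under 2-fold. As a result sty was 2.54 times as high as aos in NSCs and 4.77 times as high in neurons.

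The repressor gene aop and the activator gene pnt were both lower in neurons, aop by more. The level of aop was 174 FPKM in NSCs against 69.6 FPKM in neurons, for a log2 change of -1.31 with a counting interval of -1.34 to -1.30 for the log2 ratio. The level of pnt was 57.9 FPKM in NSCs against 43.4 FPKM in neurons, for a log2 change of -0.41. The repressor stood above the activator in both libraries. The ratio of pnt to aop was 0.333 in NSCs (95% counting interval 0.328 to 0.338) and 0.623 in neurons (0.611 to 0.635). On the log2(FPKM + 1) scale this ratio was -1.57 in NSCs and -0.67 in neurons. The gene edl, also called mae, encodes a small protein that binds Aop and Pointed through their shared Pointed domain. Its level was 163 FPKM in NSCs against 65.0 FPKM in neurons, so the ratio of edl to aop was 0.938 in NSCs and 0.934 in neurons. The counting intervals of that ratio, 0.921 to 0.956 and 0.907 to 0.961, overlapped. The annotation used here gives pnt 4 transcripts and aop 5, and gene values do not separate them. A stretch of 307 bp of aop exons is also covered by CG15382 on the opposite strand, which had 3.02 FPKM in NSCs against 3.13 FPKM in neurons.

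By level, the order in NSCs was spi, aop, sty, S, pnt, Egfr, aos, rho and vn. In neurons it was spi, sty, aop, pnt, Egfr, rho, S, aos and vn. The highest and the lowest gene kept their places, while S moved from rank 4 to rank 7. Within the NSC library the counting intervals of aos (28.3 to 30.0 FPKM) and rho (26.9 to 28.4 FPKM) overlapped, and those of the other neighbours did not. Within the neuron library no neighbouring intervals overlapped. These intervals leave out variation between preparations. Of the sum over the 9 genes, 771 FPKM in NSCs against 516 FPKM in neurons, spi made up 37.4% and 33.3%, and aop 22.6% and 13.5%.

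**Figure D2:**
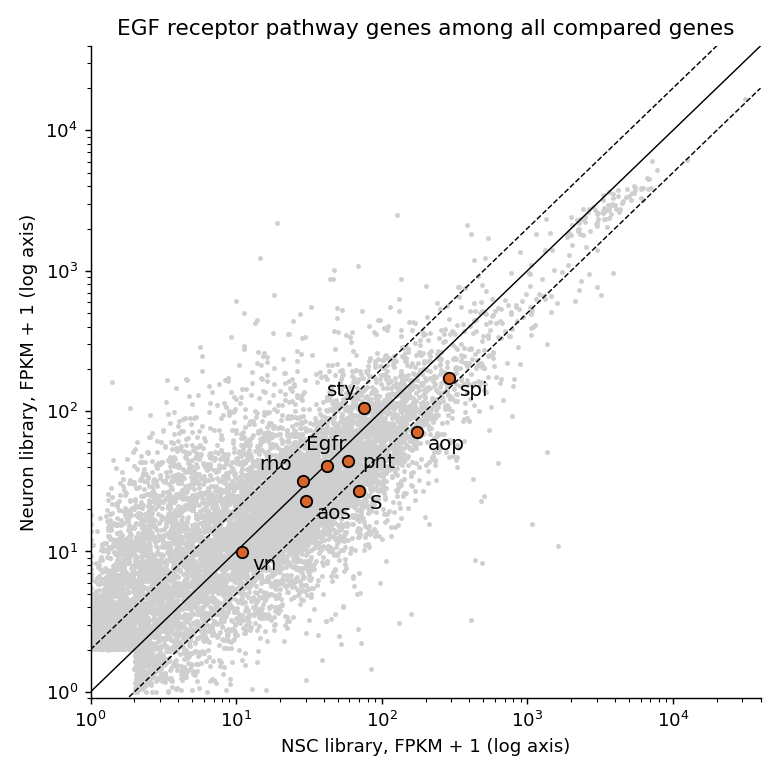
FPKM + 1 in the NSC library against the neuron library, both on log axes, for the 10158 compared genes (grey) and the 9 EGF receptor pathway genes (orange). The solid line marks equal levels and the dashed lines 2-fold differences. S and aop lie below the lower dashed line, and the other 7 lie between the dashed lines.

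The values rest on large numbers of fragments. The depth was estimated at 65.6 M mapped fragments (M, 1000000) in NSCs and 69.5 M in neurons, and the estimated fragments per gene and library ranged from 3147 (vn in neurons) to 59922 (aop in NSCs). No counting interval of a log2 ratio of the 9 genes included 0, and that of Egfr came closest (-0.09 to -0.03). How much these levels vary between preparations could not be measured.

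Most of the 9 genes are long. All but rho (5134 bp) belonged to the longest 20% of compared genes, those with a span of at least 8391 bp, and pnt was the longest at 55937 bp. Among the 2018 compared genes of that length, 45.4% were higher in neurons by 2-fold or more, 5.05% were lower by as much, and the median log2 change was 0.82. Among the 8 pathway genes in it, 0 were higher, 2 were lower, and the median was -0.41.

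Other genes of the pathway were then examined from lists of known components. Of 29 further genes, 28 had a row under the listed symbol. The MAP kinase gene rl was not analysed here. A total of 27 passed the filter, of which 5 were higher in neurons by 2-fold or more (18.5%) and 3 were lower by as much (11.1%), beside 26.9% and 16.6% of all compared genes. Their median log2 change was -0.25. Under TPM scaling 8 were higher and 1 was lower, beside 33.8% and 11.8% of all compared genes, and the median was 0.0087. With a list of 6 other Ets domain genes, which are not components of the pathway, 8 of 33 were higher (24.2%) and 3 were lower (9.09%).

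Among genes of ligands and ligand processing, including 4 of the 9, 3 of the 10 compared were higher and 1 was lower (beside 26.9% and 16.6% of all compared genes), and the median log2 change was 0.28. The 3 were genes of the Rhomboid family with low levels in NSCs. The gene stet had 2.10 FPKM in NSCs against 10.0 FPKM in neurons. The gene ru had 0.0670 FPKM, about 7.03 fragments, in NSCs and 3.64 FPKM in neurons. The gene rho-5, which encodes a Rhomboid relative without protease activity, had 0.861 FPKM in NSCs against 11.2 FPKM in neurons. Their log2 changes were 1.83, 2.12 and 2.71. In both libraries each of the 3 stood below rho, whose log2 change was 0.15, and below rho-4, which had 59.1 and 41.1 FPKM. The gene grk, which encodes the ligand Gurken of the female germline, had 13.9 and 18.9 FPKM. The gene rho-6 had about 3.21 and 3.20 estimated fragments and was too low to compare.

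Genes acting between the receptor and MAP kinase were mostly lower in neurons, few of them by 2-fold. The list of 15 further genes held Cbl and Gap1, which are negative regulators and are counted again with those below. It also held Nf1, like Gap1 a RAS inhibitor gene, which is not counted with those below. Nf1 was higher in neurons, within 2-fold, with 10.3 FPKM in NSCs against 17.0 FPKM in neurons (log2 change 0.67). Of the 15, 13 had lower levels in neurons, Cbl and Gap1 among them, beside 45.7% of all compared genes. Under TPM scaling 10 of 15 did, beside 38.4%. By 2-fold or more, 1 of the 15 was lower and 1 was higher, beside 16.6% and 26.9% of all compared genes. The median log2 change of the 15 was -0.56, and -0.30 under TPM scaling. The adaptor gene drk had 144 FPKM in NSCs against 82.0 FPKM in neurons, and Ras85D, the RAS gene, had 127 and 92.3 FPKM. The Raf gene phl had 26.0 and 15.0 FPKM, and the MAP kinase kinase gene Dsor1 18.0 and 16.8 FPKM. The scaffold gene cnk was just past 2-fold, with 29.7 FPKM in NSCs against 14.3 FPKM in neurons (log2 change -1.01), and within it under TPM scaling (-0.76). The higher gene was spri, which encodes a RAS-binding protein, with 8.10 and 27.6 FPKM (1.65). Together with Egfr, the receptor and adaptor list of 8 genes had a median of -0.32, and the list from RAS to MAP kinase a median of -0.57 over 8 genes.

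Of 7 negative regulators, including aos and sty, 1 was higher (14.3%, beside 26.9% of all compared genes), none was lower (beside 16.6%), and the median log2 change was 0.48. Under TPM scaling 3 were higher, beside 33.8% of all compared genes, with Mkp3 (1.27) and PTP-ER (1.02) then past 2-fold. Mkp3 was also past 2-fold with pseudocounts of 0.1 and 0.5 and with upper quartile scaling. The gene kek1 encodes a transmembrane protein that binds and inhibits the EGF receptor. It had 1.73 FPKM in NSCs against 31.7 FPKM in neurons, for a log2 change of 3.59. Mkp3, which encodes a MAP kinase phosphatase, had 21.0 and 43.0 FPKM, just under 2-fold on this scale (0.999). PTP-ER, the gene of a phosphatase of the same kinase, had 11.9 and 20.6 FPKM (0.75). In contrast, the ubiquitin ligase gene Cbl had 89.2 and 51.8 FPKM (-0.77) and the RAS inhibitor gene Gap1 54.1 and 36.4 FPKM (-0.56).

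All 5 nuclear effectors, including pnt and aop, had lower levels in neurons, beside 45.7% of all compared genes. Under TPM scaling 4 of the 5 did, beside 38.4%, since cic turned to a log2 change of 0.17. By 2-fold or more, 3 of the 5 were lower, beside 16.6% (2 beside 11.8% under TPM scaling). The 3 were aop, edl (-1.31) and the corepressor gene gro, which had 198 FPKM in NSCs against 97.6 FPKM in neurons (-1.01). The call of gro was lost under TPM scaling (-0.75) and with a pseudocount of 5 (-0.98). The repressor gene cic had 62.3 and 58.2 FPKM (-0.10). The median of the 5 was -1.01, and -0.75 under TPM scaling. Of 6 other genes with an Ets domain, 3 were higher and none was lower, beside 26.9% and 16.6% of all compared genes, and the median was 0.88. Ets65A had 0.562 FPKM in NSCs against 21.9 FPKM in neurons (3.87), Ets21C 0.385 and 4.61 FPKM (2.02), and Ets98B 0.9499 and 4.63 FPKM (1.53). With a pseudocount of 5, Ets21C (0.84) and Ets98B (0.69) were within 2-fold. In neurons these 3 stood below pnt and aop.

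**Figure D3:**
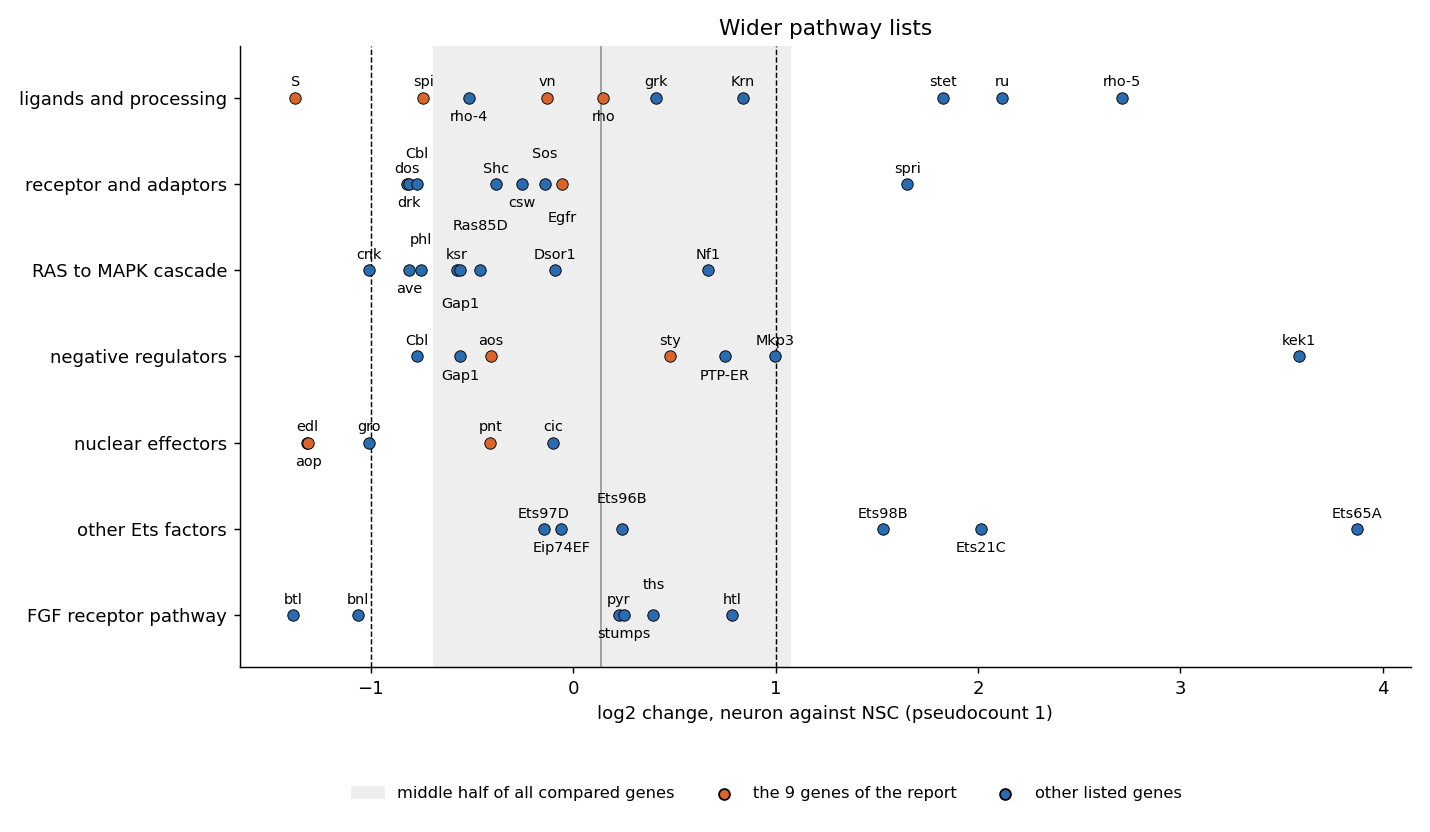
The log2 change (neuron against NSC, pseudocount 1) of each compared gene, by list, with the 9 EGF receptor pathway genes in orange and other listed genes in blue. The grey band spans the lower to the upper quartile of the 10158 compared genes, the grey line is their median of 0.14, and dashed lines mark 2-fold. All 5 nuclear effectors lie left of 0 (under TPM scaling cic does not), and kek1 and Ets65A lie farthest right.

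The FGF receptors use the same RAS to MAP kinase cascade. Of 6 genes of that pathway, 0 were higher and 2 were lower in neurons (beside 26.9% and 16.6% of all compared genes), and the median log2 change was 0.24. The lower genes were btl, an FGF receptor gene of the trachea, and its ligand gene bnl. The level of btl was 16.5 FPKM in NSCs against 5.72 FPKM in neurons, and that of bnl 22.6 and 10.3 FPKM. Under TPM scaling 1 of the 6 was higher and 1 was lower, beside 33.8% and 11.8% of all compared genes. With a pseudocount of 5, 0 were higher and 1 was lower, beside 16.1% and 11.8%. Egfr was higher than either FGF receptor gene in both libraries, since htl had 12.9 and 23.0 FPKM.

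Genes known to respond to EGF receptor signalling in the embryonic ectoderm were listed too. Of 8, including vn, aos and pnt, 1 was higher and 1 was lower (12.5% each, beside 26.9% and 16.6% of all compared genes), and the median log2 change was -0.08. Under TPM scaling 2 were higher and 1 was lower, beside 33.8% and 11.8% of all compared genes, and the median of the 8 was 0.17. Fas3, an adhesion gene, had 28.6 FPKM in NSCs against 335 FPKM in neurons (3.50), whereas ind, a homeobox gene of the intermediate neural column, had 14.5 and 2.57 FPKM (-2.12). At FPKM as deposited, oc (16.4 and 16.0 FPKM), vnd (7.02 and 9.66 FPKM) and tup (22.3 and 40.4 FPKM) were within 2-fold. Of these, tup was the nearest to 2-fold higher (0.83).

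The study scored its purified nuclei and reported high purity for both cell types. It also reported that genes specific to each cell type were expressed above genes of other tissues in the matching nuclei. The labelled cell types were compared here with marker genes, since cells other than neural ones use this pathway. Of 6 NSC markers 3 were at least 2-fold lower in neurons, and 1, scrt, was higher. The 3 were sca (64.0 and 4.72 FPKM), dpn (37.9 and 15.3 FPKM) and mira (122 and 47.2 FPKM). Of 7 neuron markers 6 were higher, and elav, within 2-fold, had 46.5 and 77.0 FPKM. The nuclei were chosen through the sca and elav drivers, so the values of these genes are not independent of that choice. These counts and the ones below stand beside 26.9% higher and 16.6% lower of all compared genes. Summed levels of other lists were 149 FPKM in NSCs against 1952 FPKM in neurons for 6 genes listed as tracheal (4 higher, 1 lower). The 4 were Osi6, Osi7, serp and verm, of which Osi6 (42.9 and 870 FPKM) and Osi7 (26.5 and 492 FPKM) were highest in neurons. Whether these 4 mark trachea alone was not tested. The lower gene was btl, and trh (20.1 and 30.9 FPKM) was within 2-fold. The sums were 208 and 756 FPKM for 6 muscle and tendon genes (4 higher, 1 lower). They were 85.9 and 206 FPKM for 5 epidermal genes (3 higher), 183 and 320 FPKM for 7 glial genes (3 higher) and 96.0 and 159 FPKM for 3 midline genes (1 higher). The higher midline gene, wrapper (log2 change 3.28), is also 1 of the 3 higher glial genes, so it entered both sums. The midline gene sim (-0.53) and the glial genes gcm (-0.59) and loco (-0.01) had lower levels in neurons, within 2-fold. No marker was at 0 in either library. The part of these cells in the levels of the 9 genes was not tested.

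**Figure D4:**
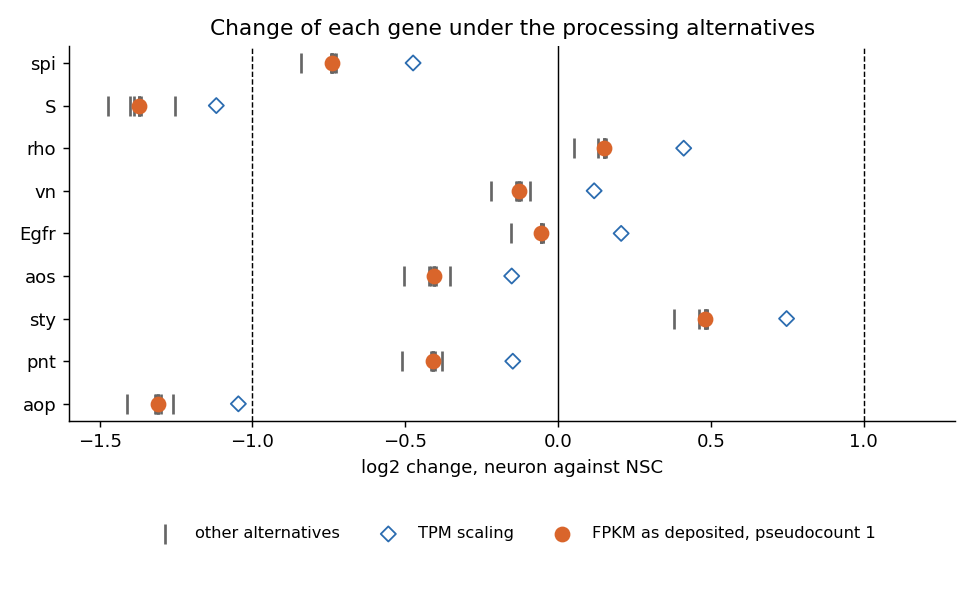
The log2 change of each of the 9 genes (neuron against NSC) as reported (orange), under TPM scaling (open diamonds) and under the other processing alternatives (grey ticks), with dashed lines at 2-fold. S stays between -1.47 and -1.12 and aop between -1.41 and -1.05, while Egfr and vn cross 0 under TPM scaling.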

How the data were processed

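The authors removed genomic DNA from the nuclear RNA with DNase, sequenced it on an Illumina HiSeq instrument, aligned reads with TopHat 1.3.1 to FlyBase transcripts (build dm3 per the labels) and quantified uniquely mapped reads with Cuffdiff 1.3.0. The authors deposited FPKM values, 1 for each gene in each library. The labels speak of cross-linked embryos and the study's methods of RNA from embryos without crosslinking. The repeated header lines of the table were removed, and all values were numbers of 0 or more.

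Count models need counts and were left out, and with 1 library per group no test was made. The log2 change used a pseudocount of 1, which understates the change of low genes. Depth was estimated from single-transcript genes with over 500 bp of exons, as the step that best made FPKM times exonic length less 200 bp a whole number (periodicity strength, from 0 to 1, of 0.784 in NSCs and 0.809 in neurons). Lengths came from Ensembl release 115, of another assembly than the authors' (11036 symbols matched directly, 2487 by a synonym, 100 not), so no coordinates are given and fragment numbers are estimates. The depth estimate was tested on simulated data made with the same lengths, so that test does not cover errors in the lengths. Intervals are 95% exact binomial or Poisson intervals (Python 3.11.15, scipy 1.17.1) and cover counting error only.

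The genes and lists were chosen with earlier results of these data known. All 9 genes, list members past 2-fold (at most 5 per direction), overlapping genes and markers may be named, and listed genes within 2-fold are named as examples chosen after their values were seen. Alternatives were other pseudocounts, scalings, filters on low values and fold thresholds.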

Additional observations from a re-analysis of the deposited data

How the results depend on the processing

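Under 9 alternatives each, S (-1.47 to -1.12) and aop (-1.41 to -1.05) stayed at least 2-fold lower in neurons, and the other 7 genes stayed within 2-fold. The filters among these alternatives only drop genes and cannot change the value of a gene that stays. Only the other pseudocounts and scalings could move the values. Taking krn as Krn, added after seeing the data, left 0 higher and 2 lower genes at FPKM as deposited. With a 1.5-fold threshold 3 of the 9 genes were lower, beside 27.8% of all compared genes. With a 3-fold threshold 0 were lower, beside 6.56%. TPM scaling raised the median of all genes by 0.25 and turned the sign of Egfr (0.21) and vn (0.12); the median of the 9 was -0.15 under it and -0.51 under median scaling. The log2 ratio of pnt to aop from FPKM times exonic length was -1.42 in NSCs and -0.52 in neurons.

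Of the 33 further genes with the Ets domain list, 6 were past 2-fold with a pseudocount of 5 (5 higher, 1 lower), 6 among genes that reached 1 FPKM in each library (3 higher, 3 lower), 5 were higher among those that reached 5 FPKM in either library, and under TPM scaling 11 were higher and 1 was lower. Of all compared genes, 16.1% were higher and 11.8% were lower with a pseudocount of 5. Among all genes that reached 1 FPKM in each library these shares were 22.1% and 17.8%. The share of higher genes was 26.2% among those that reached 5 FPKM in either library. Under TPM scaling 33.8% were higher and 11.8% were lower. Filters remove low genes such as ru by construction. In contrast, edl, kek1, spri and stet were past 2-fold under every alternative, whereas cnk and gro were within 2-fold with a pseudocount of 5 and TPM scaling, and cnk also with upper quartile scaling. Of all genes, 1631 were higher with a pseudocount of 5. No paired analysis was possible because each group had 1 library. Counting error was widest for rho-6 and for ru in NSCs, which had the fewest estimated fragments.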

Other observations

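Several other receptor tyrosine kinase genes and ligands differed more between the libraries than Egfr. Of 16 listed genes, 8 were higher in neurons by 2-fold or more, 3 were lower by as much (beside 26.9% and 16.6% of all compared genes), and the median log2 change was 1.02. Drl-2 had 0.395 FPKM in NSCs against 17.8 FPKM in neurons (log2 change 3.75), Ror had 3.06 and 38.7 FPKM (3.29), and Nrk had 3.78 and 43.3 FPKM (3.21). The gene otk had 12.5 and 99.5 FPKM (2.89), and Cad96Ca had 1.56 and 19.6 FPKM (3.01). In the other direction, tor, the receptor that patterns the embryo's ends, had 28.1 FPKM in NSCs against 6.61 FPKM in neurons (-1.93). Alk, a receptor of the visceral muscle, and its ligand gene jeb were lower together, with 9.23 and 2.14 FPKM (-1.70) and with 23.0 and 5.30 FPKM (-1.93). Eph, the ephrin receptor gene, was the highest of the list in NSCs, with 118 FPKM there and 114.7 FPKM in neurons, and like Egfr it differed by a log2 change of less than 0.06 in size.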
